A study of Mus musculus with 2 samples.

Results

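Small nucleolar RNAs (snoRNAs) and small Cajal body RNAs (scaRNAs) were described in mouse CFU-E cells, colony-forming unit erythroid progenitors that are committed to the red cell lineage. Members were gene rows whose GENCODE M21 biotype is snoRNA or scaRNA and whose expected count, an estimate of reads that can be fractional, was at least 10 in both libraries. The rule kept 99 of 1525 such rows, among 43346 Ensembl gene rows in all. Of the 99, 87 were annotated as snoRNA and 12 as scaRNA. By symbol, 27 were named Snora, 11 Snord and 5 Scarna, and 56 had other names, most of them Gm numbers. Members were thus chosen by their expected counts, so their levels are given as descriptions, with no test.

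RNA depleted of ribosomal RNA was sequenced by ScriptSeq from 100 ng of total RNA in 2 libraries, replicate 1 and replicate 2, of 1 group. Both came from primary erythroid progenitors of adult male C57BL/6J mice aged 5 to 6 weeks, with no genotype or agent given. The labels number them as biological replicates 1 and 2, yet give both the same donor identifier with different biosamples. The spread between them may therefore be biological or technical, and no p-value is given for replicate 1 against replicate 2. Ensembl gene rows summed to 62576357 expected counts in replicate 1 and 36889517 in replicate 2. All 10 erythroid markers checked, such as Gata1, Klf1 and the adult globins, reached 1 TPM in each library, with summed levels of 26883 and 12368 TPM (counts per effective length, scaled to the same total in each library). All 6 neutrophil markers checked also reached 1 TPM, with sums of 1166 and 587 TPM, as did 5 of 5 macrophage markers (31.8 and 21.8 TPM) and 4 of 5 B cell markers (37.4 and 19.3 TPM). Over all genes the median log2 TPM ratio of replicate 1 over replicate 2 was 0.65, so these sums do not compare the libraries. The part that other cells had in the snoRNA levels was not tested.

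Most snoRNAs belong to either of the classes named for their conserved boxes. C/D box RNAs, usually named Snord, pair with ribosomal RNA and direct methylation of the ribose by fibrillarin, while H/ACA box RNAs, usually named Snora, direct pseudouridylation by dyskerin. Small Cajal body RNAs do the same for spliceosomal small nuclear RNAs, and a few snoRNAs, led by U3, act in cleavage of the ribosomal RNA precursor rather than in its modification. In mammals most are cut out of introns of host genes, many of which encode ribosomal proteins and translation factors, and red cell progenitors make ribosomes at a high rate.

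The sequences shown are those on which the description of levels turns. They are the transcripts of GENCODE M21 on mm10, printed 5' to 3' as RNA-sense DNA. Capitals mark boxes found by letter search: TGATGA (C box) anywhere in the RNA, CTGA (D box) within the last 12 bases, or ACA exactly 3 bases before the 3' end. Only the strand of the RNA was searched, and the C and D box letters share no overlap in the printed RNAs. The first set holds Gm22422 (chr16:56035753-56035887, minus strand) and Snora81 (chr16:23110756-23110933, plus strand), which are among the members of highest mean count, and Scarna13 (chr12:105031075-105031349, minus strand) as an abundant scaRNA.
Gm22422: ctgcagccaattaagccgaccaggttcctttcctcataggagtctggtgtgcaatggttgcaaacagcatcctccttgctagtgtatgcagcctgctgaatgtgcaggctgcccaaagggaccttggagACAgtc
Scarna13: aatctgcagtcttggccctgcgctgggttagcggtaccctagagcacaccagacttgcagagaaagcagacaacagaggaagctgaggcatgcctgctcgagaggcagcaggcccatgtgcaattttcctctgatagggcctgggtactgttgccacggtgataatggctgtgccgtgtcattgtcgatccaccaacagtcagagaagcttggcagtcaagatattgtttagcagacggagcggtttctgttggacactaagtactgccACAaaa
Snora81: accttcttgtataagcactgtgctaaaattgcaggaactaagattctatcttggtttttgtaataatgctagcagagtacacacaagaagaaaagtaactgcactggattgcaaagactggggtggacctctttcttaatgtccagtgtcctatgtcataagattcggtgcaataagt

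The U3 genes are shown because the Rnu3b copies differ so little that their reads can hardly be assigned to 1 of them, whereas Rnu3a is distinct. Rnu3a lies at chr10:40258467-40258680, Rnu3b1 at chr11:87443237-87443452 and Rnu3b4 at chr11:87462286-87462500, all on the plus strand. Rnu3b3 has the same letters as Rnu3b1, and Rnu3b2 the same as Rnu3b4. Rnu3b1 and Rnu3b4 share 215 bases from the 5' end, and Rnu3b1 has 1 further base.
Rnu3a: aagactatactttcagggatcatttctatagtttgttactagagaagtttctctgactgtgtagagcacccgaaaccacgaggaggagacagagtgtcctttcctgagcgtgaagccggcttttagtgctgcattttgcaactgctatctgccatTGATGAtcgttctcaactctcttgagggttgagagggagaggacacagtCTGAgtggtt
Rnu3b1: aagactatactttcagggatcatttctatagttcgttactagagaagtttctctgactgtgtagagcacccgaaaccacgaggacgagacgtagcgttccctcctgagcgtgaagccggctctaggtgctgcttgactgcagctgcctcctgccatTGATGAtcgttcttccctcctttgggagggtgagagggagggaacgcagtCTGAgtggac
Rnu3b4: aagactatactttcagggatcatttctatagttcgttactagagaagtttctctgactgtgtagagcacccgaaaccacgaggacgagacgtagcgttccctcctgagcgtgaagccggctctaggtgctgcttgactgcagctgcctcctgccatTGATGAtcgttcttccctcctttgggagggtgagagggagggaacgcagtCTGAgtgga

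The last set holds the pairs Snora73a (chr4:132352775-132352979) with Snora73b (chr4:132352322-132352526) and Snord15a (chr7:99482785-99482932) with Snord15b (chr7:99479563-99479707), all on the minus strand. These are copies in a common host gene that differ strongly between libraries. Snora70 (chrX:74272484-74272620, plus strand) had the lowest ratio of any member and is the named relative of Gm22422. Snord14d (chr9:40803995-40804080, plus strand) stands for the members too short to receive a TPM.
Snora73a: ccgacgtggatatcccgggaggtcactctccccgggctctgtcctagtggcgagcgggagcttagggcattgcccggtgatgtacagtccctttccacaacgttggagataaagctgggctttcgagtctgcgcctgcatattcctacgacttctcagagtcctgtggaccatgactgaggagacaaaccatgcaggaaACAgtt
Snora73b: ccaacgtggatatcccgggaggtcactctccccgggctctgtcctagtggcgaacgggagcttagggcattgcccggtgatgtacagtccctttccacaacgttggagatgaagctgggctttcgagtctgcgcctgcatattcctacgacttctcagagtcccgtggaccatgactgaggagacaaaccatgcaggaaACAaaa
Snord15a: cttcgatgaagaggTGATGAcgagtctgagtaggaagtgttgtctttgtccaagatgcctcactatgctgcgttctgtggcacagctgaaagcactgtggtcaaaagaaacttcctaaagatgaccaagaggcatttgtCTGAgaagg
Snord15b: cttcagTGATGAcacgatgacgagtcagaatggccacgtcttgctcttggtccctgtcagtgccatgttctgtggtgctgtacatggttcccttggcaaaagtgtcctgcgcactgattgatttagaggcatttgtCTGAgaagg
Snora70: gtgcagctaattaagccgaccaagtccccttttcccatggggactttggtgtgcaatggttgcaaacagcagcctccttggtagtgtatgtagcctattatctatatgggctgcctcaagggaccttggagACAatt
Snord14d: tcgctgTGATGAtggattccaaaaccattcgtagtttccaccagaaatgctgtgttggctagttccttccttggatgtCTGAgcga

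An ACA at the stated place was found in 54 members, a C box together with a D box in 24, and neither pattern in 21. Among all 1525 rows, 18.6% had the ACA end, 25.8% the C box and 29.6% the D box. The names and the letters ran together among the members. Of 27 Snora members 21 had the ACA end and none the C box, while 10 of 11 Snord members had the C box and 11 of 11 the D box. Snora81, printed above, is a Snora whose annotated transcript lacks the ACA end. A letter match is a description, not a functional site, and a missing match says only that the letters are not there. Of the 56 members with other names, 31 had the ACA end and 11 both C and D boxes.

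The members took 0.292% of gene counts in replicate 1 and 0.528% in replicate 2 (mean 0.410% ± 0.167, SD, n = 2). Rows of the class with any count numbered 123 in replicate 1 and 156 in replicate 2, so most of the 1525 annotated rows had none. The median member had 225 counts in replicate 1 and 431 in replicate 2, or 3.60 and 11.7 CPM (counts scaled to the same library total). Counts were concentrated in few genes: the top member held 26.0% of member counts in replicate 1 and 13.6% in replicate 2, and the top 10 held 68.1% and 55.6%. Of the 10 highest members in each library, 6 were shared.

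Gm22422, an RNA with an ACA end in an intron of the mitochondrial tRNA methyltransferase gene Trmt10c, had 47426 counts in replicate 1 and 6553 in replicate 2. It was the highest member in replicate 1. Gm23245, in an intron of the chaperonin subunit gene Cct6a, had 5553 counts in replicate 1 and 26539 in replicate 2, where it was the highest. The libraries thus had different leading snoRNAs. Both had whole-number counts. Their log2 ratios, replicate 1 over replicate 2 of counts scaled by TMM (the trimmed mean of M-values, which puts libraries on a common scale), were 2.16 and -2.96.

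Scarna10 had 21299 counts in replicate 1 and 18521 in replicate 2, a log2 ratio of -0.50. Its RNA carries both box classes in human and guides modification of the U5 spliceosomal RNA there. It overlaps an exon of the condensin gene Ncapd2, which had 33979 and 19329 counts, and its counts were fractional, as happens where reads are shared with another row. Exons of all annotated transcripts of a gene were pooled, here and below. A member said to overlap an exon can thus lie in an intron of another transcript of that gene. Snora81, which overlaps an exon of the translation factor gene Eif4a2, had 17413 counts in replicate 1 and 9929 in replicate 2, a log2 ratio of 0.11. Gm23946, overlapping an exon of the mitochondrial import gene Timm23, had 5806 and 5350 counts.

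**Figure D1:**
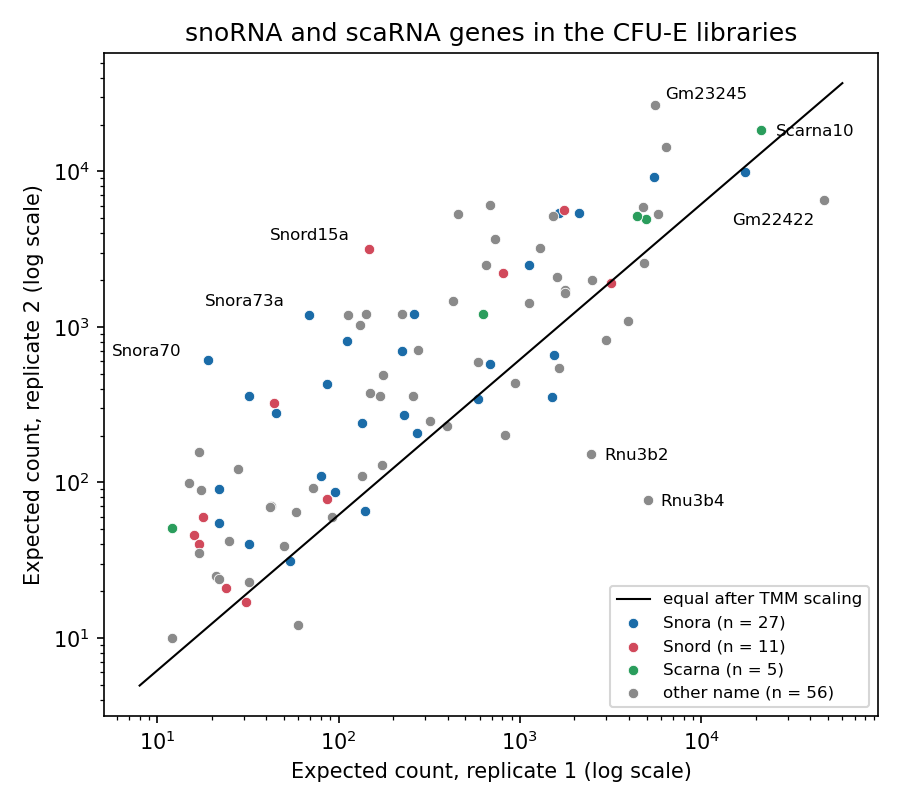
Expected counts of the 99 members in replicate 1 (x axis) and replicate 2 (y axis), both on log scales, 1 point a gene, coloured by name. The line marks equal levels after TMM scaling; 80 members lie above it, on the side of replicate 2, and Gm22422, Rnu3b2 and Rnu3b4 lie farthest below it among members with over 1000 counts in replicate 1 (the Rnu3b points are single copies that share reads).

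Scaled for library size, the members stood lower in replicate 1 than in replicate 2. Their median log2 ratio was -1.18, beside 0.01 over all 10931 genes that reached 10 counts in each library. Past 2-fold, 8 members were higher in replicate 1, where 9.90% of all genes were, and 56 were higher in replicate 2, where 11.3% of all genes were. With the Rnu3b copies, which share reads, summed as 1 gene, the numbers were 6 and 54 of 96 and the median was -1.29. Without regard to size, 19 members had a ratio above 0 and 80 below. The plot of counts in the 2 libraries shows this as a cloud above the line of equal levels.

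The ratios of members lay farther from 0 than those of all genes in each range of mean count. Distance from 0 holds the members' shared shift towards replicate 2 as well as the spread around it. Among members with a mean count of 1000 to 10000 the median absolute log2 ratio was 1.30, beside 0.22 for all genes in that range. At 100 to 1000 counts it was 1.91 for members and 0.53 for all genes, and at 10 to 100 counts it was 1.28 and 0.94. At 10000 to 100000 counts, with only 5 members, it was 1.87 and 0.15. The members' counts nevertheless ranked in a similar order in the libraries, with a Spearman rho across members of 0.802 (n = 99), beside 0.933 across all genes; genes of a library share its preparation and are not independent. A single pair of libraries cannot tell a difference between the cell preparations from one between the library preparations, and in bulk RNA fewer cells of a type and less RNA in each cell cannot be told apart. The labels give a size range of 209 to 891 for replicate 1, against 186 to 747 for replicate 2, and the part of fragment size in these ratios was not tested.

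The 5 largest ratios each way are given among members whose mean count reached 50. Lowest was Snora70, an H/ACA RNA that overlaps an exon of the ribosomal protein gene Rpl10, with 19 counts in replicate 1 and 609 in replicate 2 (log2 ratio -5.66). Snord15a followed at -5.12, Snora73a at -4.80, Gm25848 at -4.23 with 458 and 5316 counts, and Snora41 at -4.16 with 32 and 358 counts. In the other direction stood Rnu3b4 at 5.34 and Rnu3b2 at 3.33, single rows of copies that share reads and whose sum over all Rnu3b copies had a ratio of -0.61. They were followed by Gm22422 at 2.16, Snora52 at 1.39 with 1507 and 353 counts, and Gm22154 at 1.33 with 828 and 202 counts. Gm22154 is 96.9% identical to Gm25788, another intronic member of the poly(A)-binding protein gene Pabpc4, and both had fractional counts. Gm22422 is 80.3% identical to Snora70, its nearest named relative, and the pair had ratios of opposite sign.

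Of the snoRNAs known to act in processing of the ribosomal RNA precursor, U3, which is needed to release 18S RNA, had the most counts. Rnu3a, the copy on chromosome 10, had 6383 counts in replicate 1 and 14357 in replicate 2 (log2 ratio -1.87), with whole-number counts. The other copies lie in introns of Tex14, a gene of germ cell bridges that had 0 counts in both libraries, which allows up to 3 counts or 0.0479 and 0.0813 CPM. Rnu3b1 had 688 counts in replicate 1 and 6108 in replicate 2. Rnu3b3, identical to it, had 4748 and 5910 counts. Genes with the same letters thus had ratios of -3.85 and -1.01.

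Rnu3b4 had 5072 counts in replicate 1 and 77 in replicate 2, and the identical Rnu3b2 had 2482 and 152. The deposited credibility intervals were wide. For Rnu3b4 they were 145 to 1605 TPM in replicate 1 and 2.66 to 45.8 in replicate 2, which lie apart. For Rnu3b1 they were 3.45 to 1130 and 218 to 1466 TPM, which overlap. For Rnu3a, which is 85.2% identical to Rnu3b1, they were narrow, at 1319 to 1385 and 1832 to 1893 TPM. Only sums over copies that share reads can be read as levels. Rnu3b1 and Rnu3b3 together had 5437 counts in replicate 1 and 12018 in replicate 2 (log2 ratio -1.84), while Rnu3b2 and Rnu3b4 together had 7553 and 229 (4.34). These sequence types differ by a single 3' base, so a read that does not reach that base matches both. All Rnu3b copies summed to 12990 counts in replicate 1 and 12247 in replicate 2, a log2 ratio of -0.61, and with Rnu3a to 19373 and 26604, a ratio of -1.16. The U3 total thus lay at the median of all members (-1.18), although its rows spanned 9.18 on the log2 scale.

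**Figure D2:**
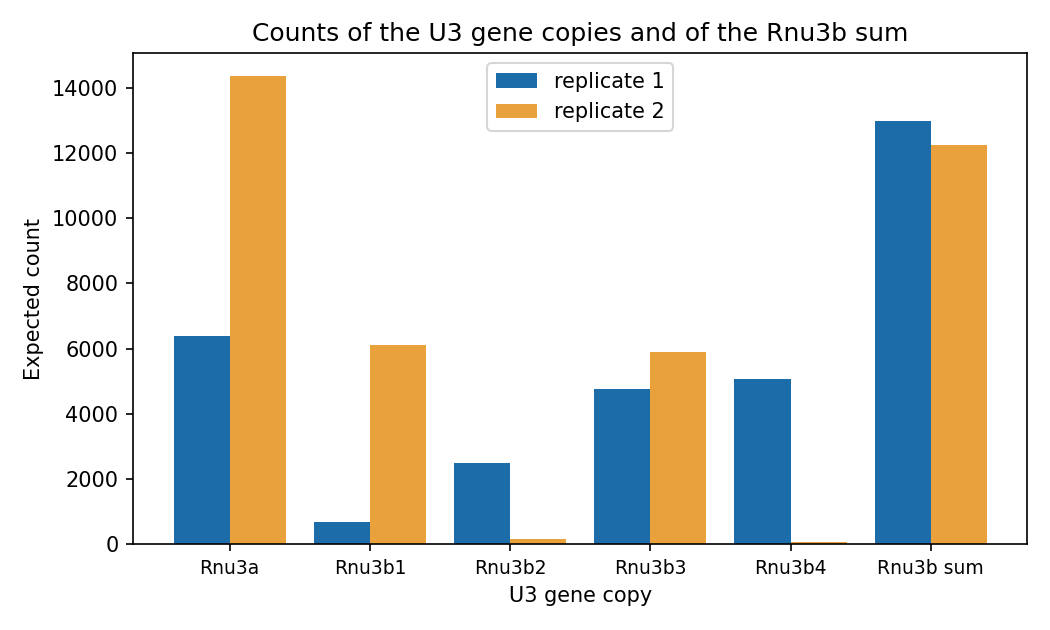
Expected counts (y axis, from 0) of the 5 U3 gene copies and of the sum of the Rnu3b copies, with replicate 1 in blue and replicate 2 in orange, 1 bar a library and no error bar. Rnu3b2 and Rnu3b4 are high in replicate 1 and Rnu3b1 in replicate 2, while the Rnu3b sums are 12990 and 12247.

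Snora73a and Snora73b, the U17 RNAs that act in early cleavage of the precursor, are 96.6% identical, with 7 single-base edits between them. Snora73a had 69 counts in replicate 1 and 1197 in replicate 2, and Snora73b had 260 and 1212. Both were low in replicate 1, and the sum of 329 and 2409 counts gave a log2 ratio of -3.57. Their host Snhg3, a non-coding gene, ran the other way, with 669 counts in replicate 1 and 67 in replicate 2 (2.61). Snora73a overlaps an exon of Snhg3 and had fractional counts, and Snora73b lies in an intron with whole-number counts.

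Snord118, the U8 RNA needed for maturation of 5.8S and 28S RNA, had 44 counts in replicate 1 and 323 in replicate 2 (log2 ratio -3.56). Snord22, the U22 RNA of 18S maturation, had 802 and 2210 counts (-2.16). The U14 copies Snord14c and Snord14d, in the heat shock gene Hspa8, summed to 34 counts in replicate 1 and 106 in replicate 2 (-2.34). Snord13 had 0 and 25 counts and was no member, and Snord14a and Snord14e had 0 in both. Of 15 genes of this list found in the tables, which also holds the telomerase RNA Terc, 12 reached 10 counts in both libraries, with a median log2 ratio of -2.17. Past 2-fold, 2 of the 12 rows were higher in replicate 1, both of them Rnu3b copies, and 9 were higher in replicate 2, including the other 2 Rnu3b copies. With the Rnu3b copies summed as 1 gene, 0 of 9 were higher in replicate 1 and 7 in replicate 2, and the median was -2.18. Over all genes the shares past 2-fold were 9.90% in replicate 1 and 11.3% in replicate 2.

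Among the 27 Snora members the median log2 ratio was -1.53. Past 2-fold, 1 was higher in replicate 1 (9.90% of all genes) and 17 in replicate 2 (11.3%). Snora members held 18.6% of member counts in replicate 1 and 21.1% in replicate 2. After Snora81 the highest was Snora74a, which directs modification of 28S RNA in human, with 5480 counts in replicate 1 and 9192 in replicate 2. Snora33 in Rps12 had 2105 and 5395 counts. Snora23, in an intron of the importin gene Ipo7, had 1653 and 5369, and Snora24 in Snhg8 had 1127 and 2516. These stood lower in replicate 1 after scaling, with ratios from -2.40 to -1.45. Snora44 and Snora52 stood higher there, with 1542 and 658 counts for Snora44 and a ratio of 0.53. Snora64, in the ribosomal protein gene Rps2, had 684 and 579 counts, a ratio of -0.46.

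The 11 Snord members had a median log2 ratio of -2.16. Past 2-fold, 0 were higher in replicate 1 (9.90% of all genes) and 7 in replicate 2 (11.3%). Snord members held 3.35% of member counts in replicate 1 and 6.97% in replicate 2. Snord15b had 1742 counts in replicate 1 and 5674 in replicate 2, and Snord15a had 148 and 3176. Both lie in the ribosomal protein gene Rps3 and are 64.2% identical. Snord15a had the lower ratio of the pair, by 2.71 on the log2 scale. Snord17, in an intron of the sorting nexin gene Snx5, had 3176 counts in replicate 1 and 1924 in replicate 2, a ratio of 0.02, whereas its neighbour Gm26165 in the same host had 648 and 2491 (-2.64). The Snora median exceeded the Snord median by 0.63 on the log2 scale; it rests on 11 Snord genes and was not tested, since members are not replicates.

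Scarna2 and Scarna13, the most abundant rows of scaRNA biotype, stayed within 2-fold between libraries. Scarna2 had 4934 counts in replicate 1 and 4935 in replicate 2, a log2 ratio of -0.70. Scarna13, in an intron of Snhg10, had 4422 and 5134 counts, a ratio of -0.91. Scarna6 had 628 and 1206 counts, and its neighbour Gm25395 in the autophagy gene Atg16l1 had 1116 and 1415. The 5 Scarna genes had ratios between -2.72 and -0.50, all below 0. Past 2-fold, 0 were higher in replicate 1 (9.90% of all genes) and 2 in replicate 2 (11.3%). The lowest was Scarna8, with 12 and 51 counts.

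Of the scaRNA rows with Gm names, Gm22009 had 1597 counts in replicate 1 and 2104 in replicate 2, in an intron of the importin gene Kpna4. Gm22767 in Ppp1r8 had 1647 and 541, and Gm23119 had 3003 and 825. These last 2 rows were the scaRNAs with ratios above 0, at 0.91 and 1.16. Gm26083 had 223 and 1210 counts (-3.14), and its host Snhg20 had 36 and 503 (-4.48). Gm26083 overlaps an exon of Snhg20 and both had fractional counts in replicate 2, so the rows may share reads. Gm25492 had 275 and 705 counts, Gm23751 256 and 357, and Gm24644 25 and 42. The 12 rows of scaRNA biotype held 9.94% of member counts in replicate 1 and 9.51% in replicate 2. Their median log2 ratio was -1.14, near that of all members (-1.18). Past 2-fold, 1 of the 12 was higher in replicate 1 (9.90% of all genes) and 8 in replicate 2 (11.3%).

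The 56 members with other names held the largest part of member counts, 60.9% in replicate 1 and 56.6% in replicate 2. Their median log2 ratio was -1.04. Past 2-fold, 7 were higher in replicate 1 (9.90% of all genes) and 30 in replicate 2 (11.3%). Besides those above, Gm23262, which overlaps an exon of the translation factor gene Eif4g2, had 4807 counts in replicate 1 and 2562 in replicate 2. Gm25791 in Taf1d, a subunit gene of the RNA polymerase I factor SL1, had 1529 and 5177. Gm25848 lies in an intron of the ubiquitin ligase gene Fbxo45, which had 1593 and 828 counts, a host ratio of 0.24 beside -4.23 for the snoRNA.

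The share of annotated rows that reached the threshold was larger among longer genes. Of 460 rows under 100 bases, 5 were members (1.09%). At 120 to 139 bases, where most H/ACA RNAs lie, 56 of 808 were members (6.93%), and of the 12 rows of 250 bases or more 7 were (58.3%). Between these, the rows that passed were 12 of 81 at 140 to 159 bases, 7 of 16 at 160 to 199 and 10 of 20 at 200 to 249. Members ran from 77 to 414 bases, with a median of 136. Short RNAs were thus counted rarely in these libraries, and whether they were absent from the cells cannot be told from them. The 19 rows named for the imprinted brain clusters (Snord64, Snord107 and Snord113 to Snord116) are 67 to 94 bases long and had 0 counts in both libraries. Rows of these clusters under other names were not looked for.

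**Figure D3:**
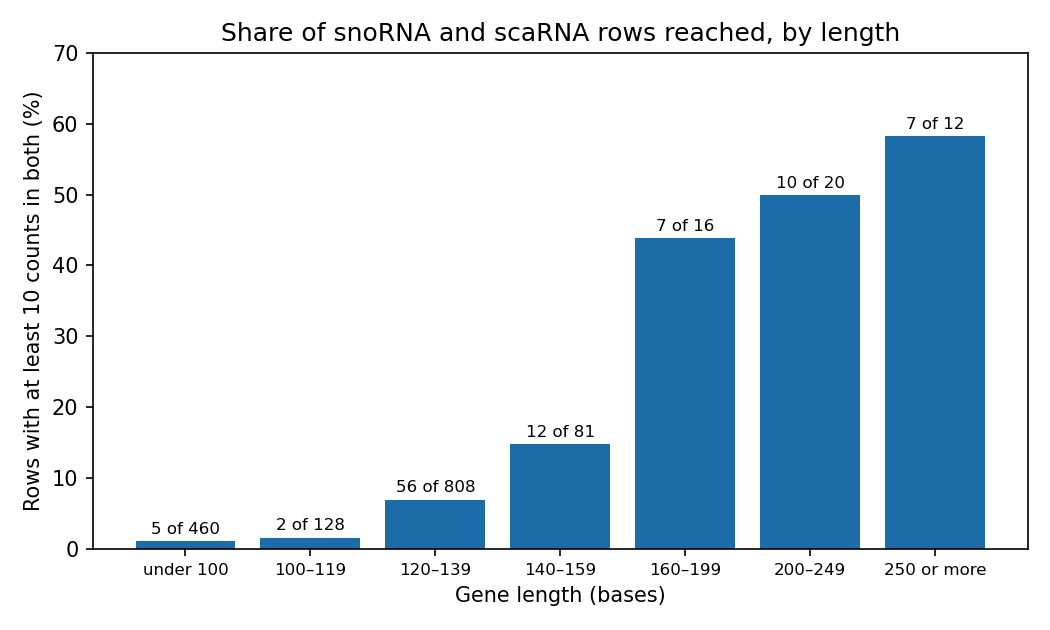
Percent of annotated snoRNA and scaRNA rows with at least 10 expected counts in both libraries (y axis, from 0), by gene length in bases (x axis), with members and rows above each bar. The share is 1.09% under 100 bases and 58.3% at 250 bases or more.

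Effective length, the number of start positions the quantification leaves for a fragment, was small for most members. For a row of 135 bases it was 2.71 bases in replicate 1 and 8.06 in replicate 2. For Scarna10, of 325 bases, it was 110.29 and 146.39. TPM divides by it, so Gm22422 with 47426 and 6553 counts had 107258 and 5387 TPM, and Scarna10 with 21299 and 18521 counts had 1182 and 838 TPM. In replicate 2 Gm22422 thus had fewer counts than Scarna10 and the higher TPM, while in replicate 1 it was higher in both units. In TPM the members' share was 21.9% in replicate 1 and 8.71% in replicate 2, the reverse order of their shares of counts.

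TPM ratios of all genes were shifted towards replicate 1, so the members' TPM ratios are read against that shift. Over the 92 members with TPM above 0 in both, the median log2 TPM ratio was 0.44, beside 0.65 over all genes. Less the median of all genes it was -0.21, below 0 as in scaled counts but smaller. Past 2-fold in TPM, 37 members were higher in replicate 1, as were 31.4% of all genes, and 18 in replicate 2, as were 6.16%. After the median of all genes was subtracted, the numbers were 22 and 29 of the 92, with no share of all genes on that scale given beside them. The deposited TPM credibility intervals lay apart for 47 members higher in replicate 1 (64.9% of all genes) and 26 higher in replicate 2 (9.13%); they cover the assignment and sampling of reads within a library, not the spread between cultures or animals. The effective length was larger in replicate 2 by a median factor of 2.93 over members where it was above 0.

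**Figure D4:**
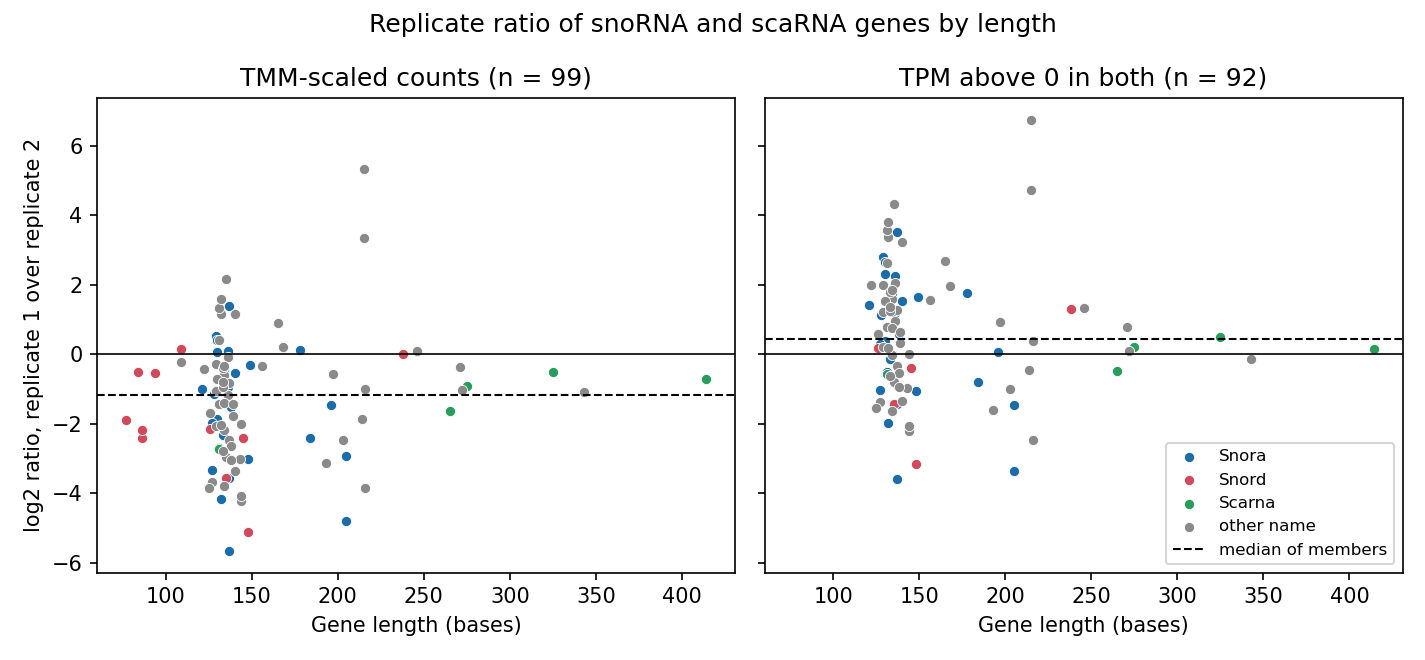
Log2 ratio of replicate 1 over replicate 2 (y axis) against gene length in bases (x axis), from TMM-scaled counts (left, 99 members) and from TPM (right, 92 members), 1 point a gene, coloured by name. The dashed line is the median of the members, -1.18 for counts and 0.44 for TPM, where the medians of all genes are 0.01 and 0.65; the solid line is 0.

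Across members, length had a Spearman rho of -0.003 with the log2 count ratio (n = 99) and of -0.18 with the log2 TPM ratio (n = 92). The count ratio thus showed no order by length. The median count ratio was -1.90 over the 5 members under 100 bases and -0.03 over the 2 of 100 to 119 bases. It was -1.41 at 120 to 139 bases, -2.71 at 140 to 159 bases, -0.58 at 160 to 199 and -1.44 at 200 to 249, and -0.91 at 250 bases or more. All 7 members of 250 bases or more had ratios below 0, from -1.64 to -0.37.

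The shortest members had counts but no TPM. The C/D RNA Snord21 in the ribosomal protein gene Rpl5, of 94 bases, had 86 counts in replicate 1 and 78 in replicate 2, with an effective length and TPM of 0 in both. Snord14d had 18 and 60 counts, Snord14c 16 and 46, Snord47 17 and 40, and Snord33 24 and 21, also with a TPM of 0. Snord23 and Gm23734, both of 109 bases, had 31 and 17 counts and 32 and 23 counts. Their TPM was listed at 0 in replicate 1 and at 51.1 and 69.1 in replicate 2, where the effective length was 2.21. A TPM of 0 for these genes is not an absence of reads, and 6 of the 7 are Snord genes.

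Members lay within other genes more often than the rows not reached, a difference that was not tested. A gene of another kind on the same strand contained 92 of 99 members (92.9%), and 40.9% of the rows below the threshold. An intron of it, with no exon of any annotated transcript touched, held 49 members (49.5%), against 33.0% of those rows. Among rows with such a gene the order was reversed: an intron held 49 of 92 members, against 471 of 583 rows below the threshold. The 72 host genes included 16 ribosomal protein genes with 19 members, 9 Snhg or Gas5 genes (non-coding snoRNA hosts) with 13, and 5 genes of translation initiation or elongation factors with 8. Rows below the threshold include many annotated copies outside genes, and the share of rows with hosts was not adjusted for length.

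The host genes had a median near that of all genes. Over 65 hosts with at least 10 counts in both libraries the median log2 ratio was 0.02. Past 2-fold, 3 of these hosts were higher in replicate 1 (9.90% of all genes) and 6 in replicate 2 (11.3%). The 82 members in the 65 hosts had a median of -1.12, and 65 of the 82 stood below their own host. The median difference of member minus host was -1.27. Member and host ratios had a Spearman rho of 0.09 across the 82 members, some of which share a host. Rpl10 had 4496 counts in replicate 1 and 3180 in replicate 2 (-0.20), beside -5.66 for Snora70 within it. Trmt10c, with 242 and 313 counts, had fewer than Gm22422 in its intron in both libraries. More counts than the host were found for 10 members in replicate 1 and 20 in replicate 2.

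**Figure D5:**
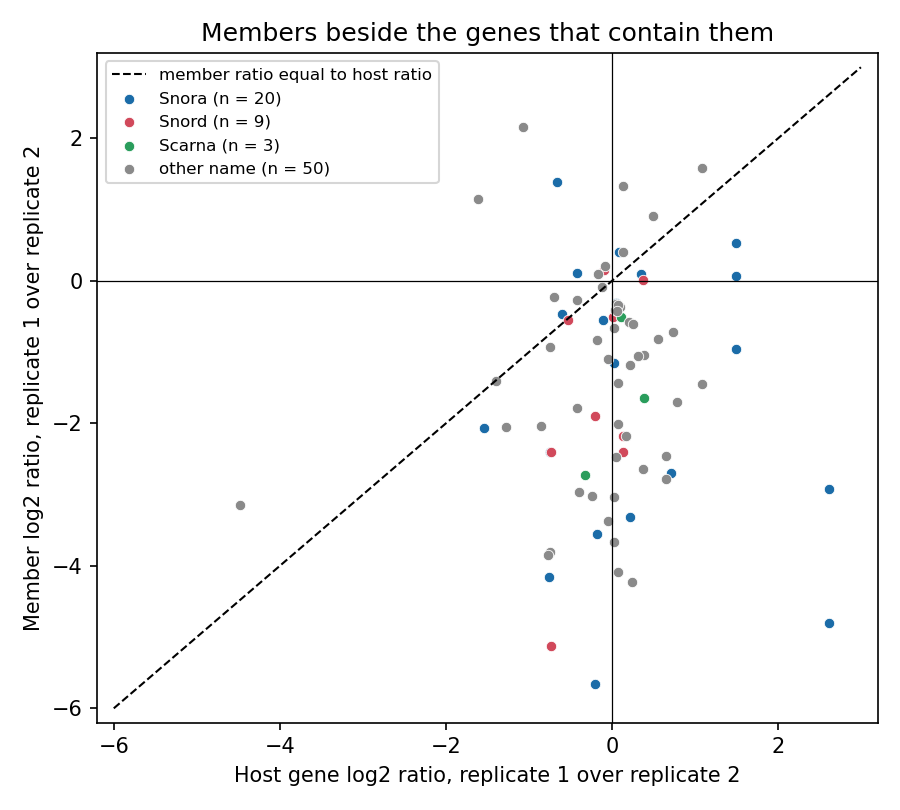
Log2 ratio of replicate 1 over replicate 2 of each member (y axis) against that of the gene that contains it (x axis), for the 82 members with a measured host, coloured by name. Hosts lie around 0 and most members below the dashed line of equal ratios, 65 of 82.

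Members within a common host also differed from each other. In Rpsa, which encodes a protein of the small ribosomal subunit, 3 members had ratios from -2.47 to -0.31 with a host ratio of 0.05. In Eif4a2 the range was -1.78 to 0.11 over 3 members, and in Eif4a1 -4.08 to -2.01 over 2. Those of Hspa8 lay within 0.217 of each other, and those of Taf1d within 0.325. In Snhg12, with a host ratio of 1.50, 3 members had ratios from -0.95 to 0.53. Members annotated in a common host thus need not have a common ratio in these tables.

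Reads shared with other rows limit 36 of the 99 members, whose counts were fractional in at least 1 library. Of the members that overlap an exon of the host, 27 of 43 had fractional counts (62.8%), and of the intronic ones 7 of 49 (14.3%). Whether counting used strand is not given in the sources used here, and reads of an exon and of the snoRNA within it cannot be told apart. The intronic members had a median log2 ratio of -1.15 and those overlapping exons -1.05. An annotated row at least 90% identical existed for 40 members; Snora81 has one of 98.9%, Gm22519, with 13 and 5 counts.

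Proteins that bind these RNAs were measured in the same libraries. Of the C/D core proteins, Nop58 had 33.4 TPM in replicate 1 and 8.92 in replicate 2, Nop56 20.0 and 10.1, Snu13 6.90 and 4.01, and the methyltransferase fibrillarin (Fbl) 2.04 and 1.27. Of the H/ACA core, the pseudouridine synthase Dkc1 had 14.2 and 4.21 TPM, Nop10 2.17 and 0.97, and Nhp2 1.98 and 0.97. All 7 had scaled count ratios between 0.04 and 0.87, above the members' median. The H/ACA protein gene Gar1 had 2 counts in replicate 1 and 0 in replicate 2. Coil, which encodes the Cajal body scaffold coilin, had 0 and 33 counts, and the H/ACA assembly gene Shq1 0 and 84. Of 12 assembly and Cajal body genes, 9 reached 10 counts in both libraries. Past 2-fold, 2 of the 9 were higher in replicate 1 (9.90% of all genes) and 2 in replicate 2 (11.3%). The telomerase RNA Terc, an H/ACA RNA annotated under another biotype and so no member, had 200 and 217 counts (-0.81).

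Just inside the threshold stood Gm22786 with 12 counts in replicate 1 and 10 in replicate 2, Scarna8 with 12 and 51, and Gm23925 with 60 and 12. Just outside stood Gm24455 with 31 and 9, a long second Snora43 row of 2366 bases with 8 and 28.5, and Gm24313 with 22 and 6. The threshold thus cut through a continuous range of counts.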

How the data were processed

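Expected counts and TPM per gene were deposited by the authors for each library, on mm10 with GENCODE M4 per the deposited notes. The names of aligner and quantifier were not given in the sources used here. Bounds of a TPM credibility interval (a signal on the TPM scale) and effective lengths stand in further columns, per the file headers. Symbols, biotypes, hosts and sequences came from GENCODE M21 (42462 of 43346 Ensembl rows matched); M21 lists 1558 genes of these biotypes, 1525 of them in the tables. Rows without an Ensembl identifier held 0 and 25 counts and were left out. Counts were rounded and scaled by TMM (edgeR 4.0.16; sizes 61216283 and 37709101) or, as an alternative, DESeq2 1.42.0 size factors, with a prior count of 0.5; R 4.3.3 and Python 3.11.15 were used, with pandas 2.3.3, numpy 2.4.6, matplotlib 3.10.9 and scipy 1.17.1. Zero counts allow up to 3 counts, for counting error only. Hosts were genes of other biotypes that contain a member, the one of highest mean TPM where several did; identity is global, by edit distance. On simulated counts of 12635 genes, 99 of 99 genes raised and 95 of 99 lowered 4-fold passed 2-fold. Named genes were the 10 Snora, 10 Snord and 10 other members of highest mean count, every scaRNA, the 5 largest ratios each way at a mean count of at least 50, Gm22422, and fixed lists of processing snoRNAs, snoRNP proteins and cell type markers; other genes were named after their values were seen. Members and lists were chosen with earlier results of these data known. With 1 group there is no comparison of groups and no p-value. The alternatives were other count minimums, posterior mean counts, TPM, scalings, prior counts, hosts and leaving out each library.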

Additional observations from a re-analysis of the deposited data

How the results depend on the processing

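The number of members was 105 and 79 at count minimums of 5 and 30, 99 with posterior mean counts, and 106 to 127 when 1 library alone set the rule. The members' share was 15.3% of TPM in place of 0.410% of counts, with 0.292% and 0.528% for single libraries. The median log2 ratio of -1.18 became 0.44 in TPM, but -0.21 in TPM less the median of all genes (0.65), an alternative chosen after seeing the data. It was -1.42 where the mean count reached 50 and -2.03 with no minimum, and -1.29 with the Rnu3b copies summed, also chosen after seeing the data. Most of the 1525 rows had 0 counts in both libraries and so a ratio of 0. The value with no minimum thus cannot rest on all of them. For rows at 0 in a single library the ratio depends on the prior count. Members past 2-fold in replicate 1 numbered 8, but 37 in TPM (22 less the median) and 16 with no minimum. In replicate 2 they numbered 56, but 18 in TPM (29 less the median) and 104 with no minimum. Shares of all genes are not given for TPM less the median or for no minimum. The Snora minus Snord difference of 0.63 became 0.785 in TPM, where all 27 Snora but only 5 of the 11 Snord members had a ratio. Subtracting the median of all genes cannot change this difference. It was 0.373 with a prior count of 5 and -0.037 with no minimum, and the cause was not tested. Hosts held 92 members, 93 on either strand and 49 by intron alone. DESeq2 size factors and total counts left the median at -1.18 and -1.24 and the 2-fold numbers at 8 and at 56 and 57. The Snora share of member counts ran from 18.6% to 21.1% over single libraries. Depth limits rows with few counts in both libraries. No paired analysis was possible because the design has 1 group.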

Other observations

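Of the snoRNA and scaRNA rows that were no members, 7 had at least 10 counts in replicate 1 alone and 28 in replicate 2 alone. Of the 28, 21 had 0 counts in replicate 1. The highest was Snora15, with 0 counts in replicate 1 and 797 in replicate 2; a count of 0 allows up to 3 counts there. Gm25117 had 2 and 347 counts, Snora36b 0 and 160, and Snora31 6 and 80. In the other direction Scarna3b had 50 counts in replicate 1 and 2 in replicate 2, and its namesake Scarna3a had 0 and 34. These genes were named after their values were seen. Of the 28 rows, 3 were under 100 bases long.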
